A study of Homo sapiens with 25 samples.

Results

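The regions described are 7 stretches of the human genome around genes of myeloid regulators: SPI1, IRF8, EGR1, EGR2, KLF4, ID2 and ID1. Every called ChIP-seq peak that overlapped one of 7 windows on the hg18 build was taken, which gave 887 peaks of the 918840 in 23 peak lists. The windows lay on chromosome 11 from 47.31 to 47.39 Mb (SPI1), chromosome 16 from 84.46 to 84.58 Mb (IRF8), chromosome 5 from 137.8 to 137.86 Mb (EGR1), chromosome 10 from 64.21 to 64.28 Mb (EGR2), chromosome 9 from 109.25 to 109.33 Mb (KLF4), chromosome 2 from 8.7 to 8.78 Mb (ID2) and chromosome 20 from 29.63 to 29.68 Mb (ID1). The windows held 206 peaks (SPI1), 224 (IRF8), 98 (EGR1), 71 (EGR2), 78 (KLF4), 115 (ID2) and 95 (ID1), over all lists.

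The peaks came from NB4, a cell line of acute promyelocytic leukaemia that carries the PML-RARA fusion. The cells were kept for 24 h with MC_2580, a compound that inhibits the histone demethylase LSD1, with retinoic acid (RA) at 0.01 µM, with RA at 1 µM, with MC_2580 plus RA at 0.01 µM (called the combination here), or with the vehicle DMSO. H3K4me1, H3K4me2, H3K4me3 and H3K27ac were mapped in all 5 conditions, LSD1 with MC_2580 and with DMSO, and GFI1 in untreated cells. The treatment field of the H3K4me3 combination library gives RA at 0.01 µM while its title gives 1 µM, and it was grouped by the treatment field. Each list comes from 1 library, so no value below has a replicate, an SD or a test, and no difference can be set against the spread between cultures. No source used here states how much MC_2580 was given. The lists hold no read counts, so the depth behind a peak is unknown.

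GFI1 is a zinc-finger repressor that recruits LSD1 and its partners to DNA and is known for favouring granulocytes over monocytes. LSD1 removes mono- and dimethyl groups from lysine 4 of histone H3 and also acts as a scaffold in repressor complexes. H3K4me3 marks promoters, H3K4me1 and H3K4me2 mark enhancers and the flanks of promoters, and H3K27ac marks active enhancers and promoters. SPI1 encodes PU.1, the factor that sets up the myeloid enhancer landscape, and IRF8, EGR1, EGR2 and KLF4 are factors of monocyte and macrophage differentiation. ID1 and ID2 encode inhibitors that hold helix-loop-helix factors off DNA, and in mouse Id2 is known as a gene that Gfi1 represses. Expression of these genes, and control by GFI1, were not measured in these files.

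To show the DNA in front of member genes with the GFI1 recognition letters that it does or does not hold, the 250 bases before an annotated start are printed for 4 genes, 5′ to 3′ on the strand of the gene, from RefSeq. These coordinates are on GRCh38.p14 and the peaks are on hg18, so no peak is placed on these letters. Capitals mark a match to the GFI1 core AAATCA on either strand, which reads TGATTT on the opposite one. For EGR2 the third of its 3 starts is shown.
ID1 promoter, GRCh38.p14 chr20:31605039-31605288, plus strand: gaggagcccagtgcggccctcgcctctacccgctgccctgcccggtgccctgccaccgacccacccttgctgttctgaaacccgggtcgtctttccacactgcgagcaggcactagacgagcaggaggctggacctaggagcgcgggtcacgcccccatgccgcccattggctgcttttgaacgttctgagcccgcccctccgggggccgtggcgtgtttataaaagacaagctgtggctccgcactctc
ID2 promoter, GRCh38.p14 chr2:8681806-8682055, plus strand: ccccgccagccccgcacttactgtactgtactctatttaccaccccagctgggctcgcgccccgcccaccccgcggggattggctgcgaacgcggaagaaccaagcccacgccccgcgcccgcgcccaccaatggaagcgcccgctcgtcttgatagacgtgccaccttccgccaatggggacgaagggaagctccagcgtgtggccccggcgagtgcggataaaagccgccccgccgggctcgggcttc
EGR2 promoter, GRCh38.p14 chr10:62816367-62816616, minus strand: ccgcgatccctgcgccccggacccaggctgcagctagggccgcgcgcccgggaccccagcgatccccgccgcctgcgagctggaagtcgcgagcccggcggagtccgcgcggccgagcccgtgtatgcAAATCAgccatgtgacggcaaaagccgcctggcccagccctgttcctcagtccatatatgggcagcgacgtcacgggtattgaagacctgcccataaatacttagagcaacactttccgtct
KLF4 promoter, GRCh38.p14 chr9:107489770-107490019, minus strand: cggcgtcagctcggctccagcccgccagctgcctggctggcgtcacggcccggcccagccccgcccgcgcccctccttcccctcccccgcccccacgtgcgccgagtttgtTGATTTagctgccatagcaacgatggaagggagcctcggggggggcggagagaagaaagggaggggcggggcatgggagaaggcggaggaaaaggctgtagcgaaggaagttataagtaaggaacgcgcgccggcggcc

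The 6-letter core was found before 2 of the 9 starts of the 6 member genes with a sequence in the table, once before the third EGR2 start at position -122 and once before KLF4 at -139 on the opposite strand, counted from the start. Of 35116 promoters of the same length in the table, 11.6% held it. The inner letters AATC were present before 6 of the 9 starts, against 64.8% of all promoters. A match is a description of letters and not a binding site. No match in the stretches of ID1 and ID2 says only that the 6 letters are not in these 250 bases.

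GFI1 and LSD1 peaks were present around nearly all of the genes, and their strengths differed widely between windows. GFI1 had 23 peaks, at least 1 in each of the 7 windows. LSD1 had 32 peaks in 7 of 7 windows with MC_2580 and 17 peaks in 6 of 7 windows with DMSO, with none in the EGR1 window in DMSO. Per window, LSD1 had 7 peaks with MC_2580 and 3 with DMSO at SPI1, 9 and 3 at IRF8, 2 and 0 at EGR1, 3 and 3 at EGR2, 3 and 2 at KLF4, 2 and 2 at ID2, and 6 and 4 at ID1. The score of a peak is the authors' value from the caller and piles up at 3100. It ranks peaks within a list, and scores of different lists are given side by side as deposited, with no change read from them.

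The strongest GFI1 peak of the windows stood at ID1, at chr20:29653678-29655038, with a score of 1815 that 0.26% of the GFI1 list reached. It lay under an LSD1 peak of score 3100 with MC_2580 (5685 bases, chr20:29653492-29659176) and under one of score 2742 with DMSO (1564 bases, chr20:29653504-29655067). At EGR2, a GFI1 peak of score 503 at chr10:64279889-64282004 crossed the end of the window, and a second of score 879 followed beyond it. The LSD1 peak there had a score of 2650 with MC_2580 (6632 bases) and 3003 with DMSO (4235 bases). In the other windows no GFI1 peak scored above 176. At the other end stood KLF4 and EGR1, each with 1 GFI1 peak, of scores 71.8 and 53.7.

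SPI1 and IRF8 had more GFI1 peaks, all of modest score. The 5 at SPI1 scored between 59.6 and 149, and the 7 at IRF8 between 54.6 and 176. The 3 GFI1 peaks at ID2 scored 103, 165 and 56.3. So the number of GFI1 peaks and their strength did not follow each other across the windows.

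Of the LSD1 peaks in the windows, 15 of 32 with MC_2580 met a GFI1 peak (46.9%), against 44.7% of that whole list, and 12 of 17 with DMSO did (70.6%), against 56.8%. The 95% exact binomial intervals of the window shares, 29.1 to 65.3% and 44 to 89.7%, hold both list values and cover counting error only. Seen from GFI1, 19 of 23 peaks met LSD1 with MC_2580 (82.6%, interval 61.2 to 95%), against 37.7% of the GFI1 list. With LSD1 in DMSO it was 15 of 23 (65.2%, interval 42.7 to 83.6%), against 30% of the list. GFI1 peaks around these genes thus met LSD1 more often than GFI1 peaks did in general, in both LSD1 lists. The background was not matched for marks. Several GFI1 peaks can lie under the same wide LSD1 peak, so the 23 are not separate observations. The shares seen from GFI1 were not recomputed under the alternatives.

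No LSD1 peak of DMSO in the windows was without a counterpart after MC_2580. The loss was 0 of 17, for which the interval reaches 19.5%, against 7.79% of the DMSO list. With MC_2580, 15 of 32 LSD1 peaks had no DMSO counterpart (46.9%), against 41.4% of that list. Over 18 overlapping pairs, the MC_2580 peak was the wider in 15, with a median width ratio of 1.25. A peak that met several peaks of the other list stands in several pairs. Such pairs gave the lowest ratio, 0.33 at IRF8, and the highest, 3.63 at ID1. The share of wider pairs over the whole lists was not computed. The median width over the whole lists was also larger with MC_2580, at 2660 bases, than with DMSO, at 2124 bases. The whole LSD1 list was also longer with MC_2580, at 18822 peaks against 12562 with DMSO, and both lists had been through a filter that no source here describes. The part of that filter in the extra peaks was not tested.

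Peaks of LSD1 and GFI1 that overlapped were joined into elements, 35 in the windows of 37303 in all. GFI1 with LSD1 in both conditions made up 12 of the 35 (34.3%), against 17% of all elements. LSD1 with MC_2580 alone made up another 12 (34.3%, against 15.5%), and GFI1 without LSD1 made up 4 (11.4%, against 47.3%). The rest were 4 elements with LSD1 in both conditions and no GFI1, and 3 with GFI1 and LSD1 with MC_2580 alone. Elements with GFI1 alone were therefore a smaller share here than in the whole lists, and elements where both proteins were called a larger one. The elements in the windows were also more often marked, with H3K4me1 in DMSO on 31 of 35 (88.6%), against 66% of all. No background matched for marks was used.

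Summed over the 7 windows, H3K4me3 and H3K27ac covered more bases in each of the 4 treatments than with DMSO. Over the 7 windows H3K27ac covered 139 kb with MC_2580, 250 kb with RA 0.01 µM, 196 kb with RA 1 µM, 194 kb with the combination and 134 kb with DMSO. The sum with MC_2580 hides a split, since 3 windows lay above DMSO and 4 below, with a median log2 ratio of -0.17. H3K4me3 covered 117, 99.5, 88.9 and 97.9 kb in these 4 treatments and 65.1 kb with DMSO. H3K4me1 covered 195, 149, 167 and 205 kb, against 180 kb with DMSO, and H3K4me2 covered 75.4, 71.3, 72.1 and 86.2 kb, against 69.4 kb. The H3K27ac list of RA 0.01 µM stands apart in length, with 55793 peaks against 24552 to 41191 in the other 4 lists of that mark. Its values are therefore also given from lists reduced to equal length where a result rests on them. The H3K4me3 list of DMSO was the shortest of that mark, with 21688 peaks over 63.9 Mb. The treated lists held 26271 to 29872 peaks over 84.3 to 100.6 Mb. More H3K4me3 cover than with DMSO was thus a trait of the whole lists too, in every treatment.

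**Figure D1:**
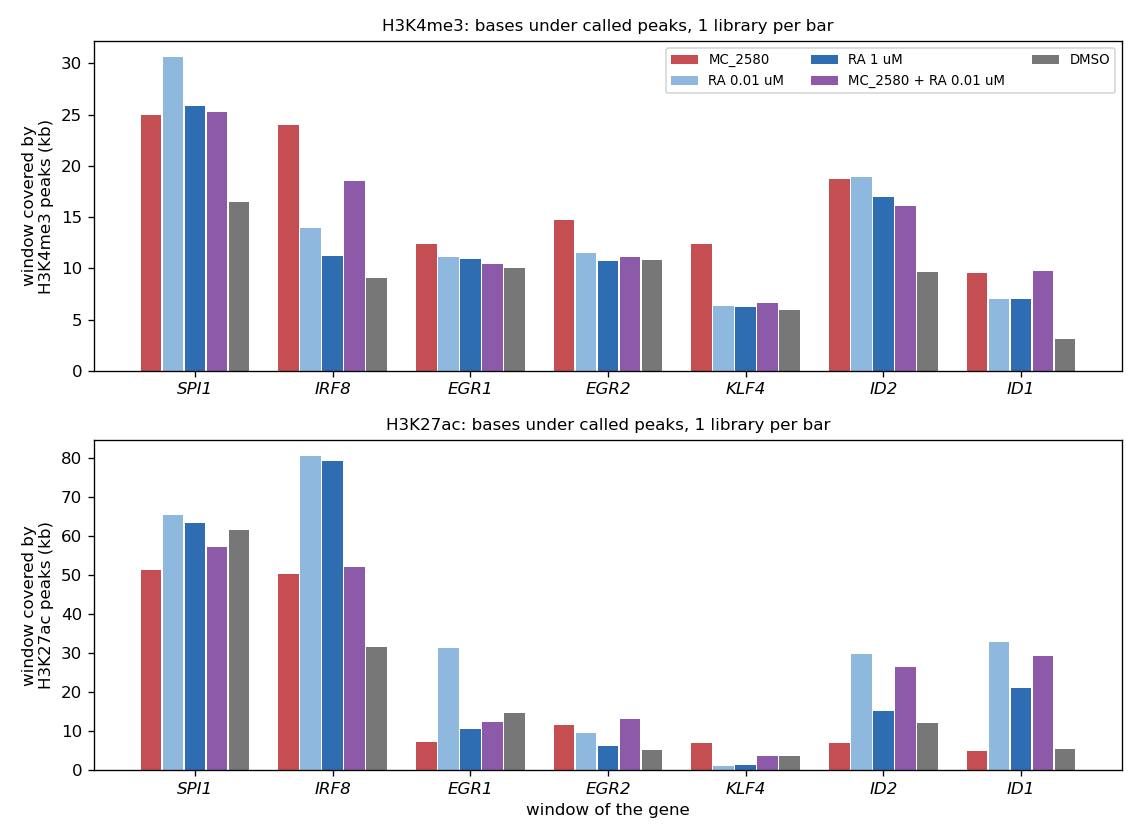
Kilobases of each gene's window under H3K4me3 peaks (top) and H3K27ac peaks (bottom), 1 bar per library, without error bars because each bar is 1 library. H3K4me3 covers more with MC_2580 than with DMSO in all 7 windows, and at ID1 H3K27ac covers 32.8, 21.1 and 29.1 kb in the 3 conditions with RA, against 4.83 kb with MC_2580 and 5.42 kb with DMSO.

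ID1 had the highest H3K27ac cover relative to DMSO of the 7 windows in each of the 3 conditions with RA. H3K27ac covered 4.83 kb of its window with MC_2580, 32.8 kb with RA 0.01 µM, 21.1 kb with RA 1 µM, 29.1 kb with the combination and 5.42 kb with DMSO. The 3 RA conditions stood apart from MC_2580 alone, which was at the level of DMSO. On the log2 scale the ratio to DMSO was 2.60 with RA 0.01 µM, 1.96 with RA 1 µM and 2.42 with the combination, and -0.17 with MC_2580 alone. With lists of equal length the RA 0.01 µM value was 2.80.

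In each condition with RA, 1 H3K27ac peak at ID1 covered the GFI1 and LSD1 element or part of it. A peak of score 3100 ran from 24.6 to 36.3 kb from the window start with RA 0.01 µM. One of score 3047 ran from 25.1 to 34.9 kb with RA 1 µM, and one of score 3100 from 14.4 to 34.9 kb with the combination. The element holds the strong GFI1 peak at 23.7 to 25 kb and a second one of score 124 at 25.6 to 26.7 kb, and the RA 1 µM peak met only the second. Neither MC_2580 nor DMSO had an H3K27ac peak over either. The nearest DMSO call was a peak of 1.36 kb and score 73.7 at 31.6 kb.

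H3K4me3 was already present on that element in DMSO and was wider in every treatment. Its peak measured 6.63 kb with MC_2580, 6.07 kb with RA 0.01 µM, 5.74 kb with RA 1 µM, 7.34 kb with the combination and 3.13 kb with DMSO. H3K4me3 width thus differed from DMSO also with MC_2580 alone, where H3K27ac cover did not. An H3K4me1 peak of 10.8 to 12.9 kb covered the same element in all 5 conditions.

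ID2 had the same order in H3K27ac with smaller ratios. Cover was 6.90 kb with MC_2580, 29.8 kb with RA 0.01 µM, 15.1 kb with RA 1 µM, 26.3 kb with the combination and 12 kb with DMSO. Its central element, with GFI1 (score 165) and LSD1 (579 with MC_2580 and 256 with DMSO) at 38.3 to 41.4 kb, had H3K27ac in the 3 RA conditions and none with MC_2580 or DMSO. The H3K27ac peaks over it scored 266 with RA 0.01 µM, 96.4 with RA 1 µM and 612 with the combination. The log2 ratio of cover to DMSO was 1.31 with RA 0.01 µM, but 0.95 with lists of equal length and 0.45 when peaks were assigned to the window by their centre, since a wide peak crosses the window start. A companion peak at about 42 kb, over a GFI1 peak of score 56.3, was called in the same 3 conditions.

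H3K4me3 at ID2 covered 18.7 kb with MC_2580, 18.9 kb with RA 0.01 µM, 16.9 kb with RA 1 µM, 16.1 kb with the combination and 9.66 kb with DMSO. The 4 treatments lay close together and all above DMSO. The peak over the element measured 3.98, 6.49, 9.65 and 6.57 kb in these treatments and 3.55 kb with DMSO.

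**Figure D2:**
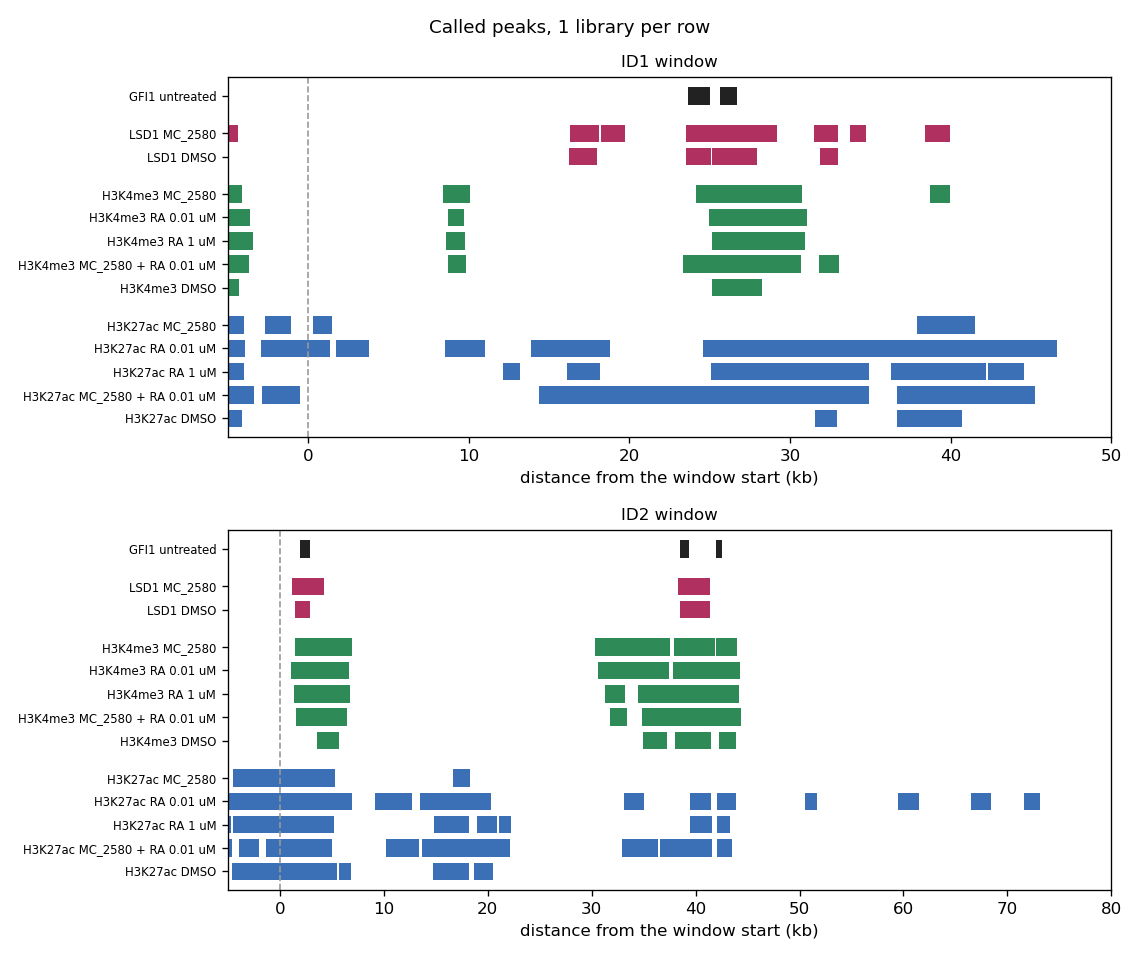
Called peaks of GFI1, LSD1, H3K4me3 and H3K27ac around ID1 (top) and ID2 (bottom), 1 library per row, by distance from the window start in kb (dashed lines mark window starts or ends). At ID1 the H3K27ac rows of the 3 conditions with RA are filled between 25.1 and 34.9 kb, over the second GFI1 peak, and the MC_2580 and DMSO rows are nearly empty there; at ID2 the same holds for the element at 38.3 to 41.4 kb.

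With either RA dose IRF8 had an H3K27ac domain inside its window that DMSO lacked, and with MC_2580 part of it. H3K27ac covered 50.3 kb with MC_2580, 80.4 kb with RA 0.01 µM, 79.1 kb with RA 1 µM, 52 kb with the combination and 31.4 kb with DMSO. Both RA doses gave nearly the same cover, and the combination gave less than RA 0.01 µM alone. The log2 ratio to DMSO was 0.68, 1.36, 1.33 and 0.73 in these 4 treatments. With lists of equal length the value was 1.34 for MC_2580 and 1.77 for RA 0.01 µM, and with windows 20 kb wider on either side it was 0.34 for MC_2580.

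Peaks beyond the main H3K4me3 peak, between 39.4 and 97.3 kb, differed between conditions. With RA 0.01 µM, 8 peaks reached from 40.9 to 96.9 kb, and with RA 1 µM 7 peaks reached from 39.4 to 97.3 kb. With MC_2580 a peak of 15.2 kb and score 1164 and a small one beside it lay between 51.5 and 68.9 kb. The combination had 1 peak of score 141 at 90.4 to 96.8 kb, and DMSO had none. The combination had 8 peaks before 37 kb, the last at 32.5 to 36.4 kb, against 3 with DMSO. In all 5 conditions, H3K27ac of score 3100 began at about 105 kb, over an element of GFI1 (69.8) and LSD1 (3100 with MC_2580 and 2068 with DMSO).

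The main H3K4me3 peak at IRF8 was wide in both conditions with MC_2580. It measured 9.04 kb with MC_2580, 3.83 kb with RA 0.01 µM, 5.47 kb with RA 1 µM, 8.99 kb with the combination and 4.03 kb with DMSO. The other 3 conditions were narrower, with RA 1 µM above RA 0.01 µM and DMSO. LSD1 peaks were called with MC_2580 but not with DMSO on this main peak (score 403), at 58.5 to 62.4 kb (783), at 66.4 to 70.4 kb (660) and at 71.2 to 76 kb (476), 3 of them over GFI1 peaks.

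**Figure D3:**
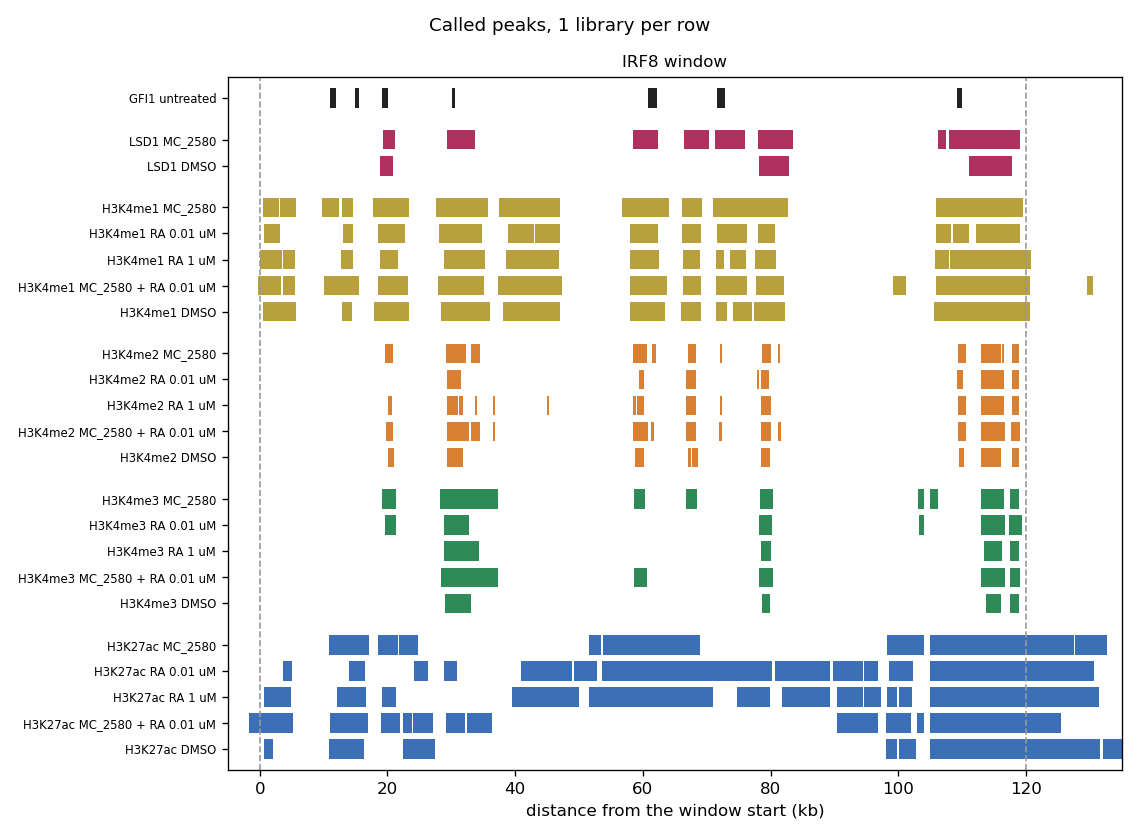
Called peaks around IRF8 for GFI1, LSD1 and the 4 histone marks, 1 library per row, by distance from the window start in kb (dashed lines mark window starts or ends). H3K27ac covers most of the stretch from 40.9 to 89.3 kb with both RA doses and part of it with MC_2580, and no H3K27ac peak lies there with the combination or with DMSO.

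EGR2 was the window where H3K27ac on a strong GFI1 and LSD1 element differed between RA alone and the conditions with MC_2580. The element, at chr10:64278661-64285292, straddles the end of the window, so the whole peaks are given. H3K27ac over it measured 8.97 kb and scored 2591 with MC_2580, measured 7.18 kb and scored 3100 with the combination, and measured 6.22 kb and scored 382 with DMSO. RA 0.01 µM and RA 1 µM had no H3K27ac peak on it. So the mark was called in DMSO, was not called with either RA dose, and was called in both conditions with the inhibitor.

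H3K4me3 on the EGR2 element measured 6.53 kb with MC_2580, 2.03 kb with RA 0.01 µM, 1.99 kb with RA 1 µM, 3.58 kb with the combination and 1.93 kb with DMSO. It was wider in the conditions with MC_2580 than in the others, as at IRF8. H3K4me1 covered the element with 7.70 to 9.58 kb in all 5 conditions. The 2 large H3K4me3 peaks of the window, at about 23 and 34 kb, scored 3100 in all 5 conditions, and both lay on GFI1 and LSD1 elements. RefSeq lists ADO and NRBF2 as the genes next to EGR2, and which peak belongs to which gene cannot be read from these lists.

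The cover within the EGR2 window was 11.6 kb of H3K27ac with MC_2580, 9.60 kb with RA 0.01 µM, 6.09 kb with RA 1 µM, 13 kb with the combination and 5.17 kb with DMSO. The DMSO peak on the element began at 70.5 kb, past the window end at 70 kb, and is not in this sum. With windows 20 kb wider on either side, the log2 ratio for RA 0.01 µM was -0.54 instead of 0.89, that for RA 1 µM was -0.91 instead of 0.24, and that for MC_2580 was 0.46 instead of 1.17.

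KLF4 carried little H3K27ac in any condition. It covered 7.05 kb with MC_2580, 0.953 kb with RA 0.01 µM, 1.41 kb with RA 1 µM, 3.73 kb with the combination and 3.55 kb with DMSO, and the highest score of any such peak was 350. At a minimum score of 100 neither RA dose kept a peak, so ratios of cover in this window carry little weight. The main H3K4me3 peak measured 5.88 kb with MC_2580, 3.36 kb with RA 0.01 µM, 3.26 kb with RA 1 µM and 3.28 kb with DMSO, and in the combination it was split into peaks of 2.33 and 1.26 kb. It was wider with MC_2580 alone than in the other 4 conditions. An LSD1 peak of 4.78 kb and score 1333 was called over it with MC_2580 and none with DMSO.

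A second KLF4 element, with LSD1 in both conditions (score 805 with MC_2580 and 292 with DMSO) and no GFI1, lay at chr9:109317671-109320701. H3K4me3 (score 122) and H3K27ac (71.6) were called on it with MC_2580 alone. H3K4me1 was called there with MC_2580 (score 354), the combination (609) and DMSO (83.1), and with neither RA dose. The element therefore differed between conditions in the presence of 3 marks.

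**Figure D4:**
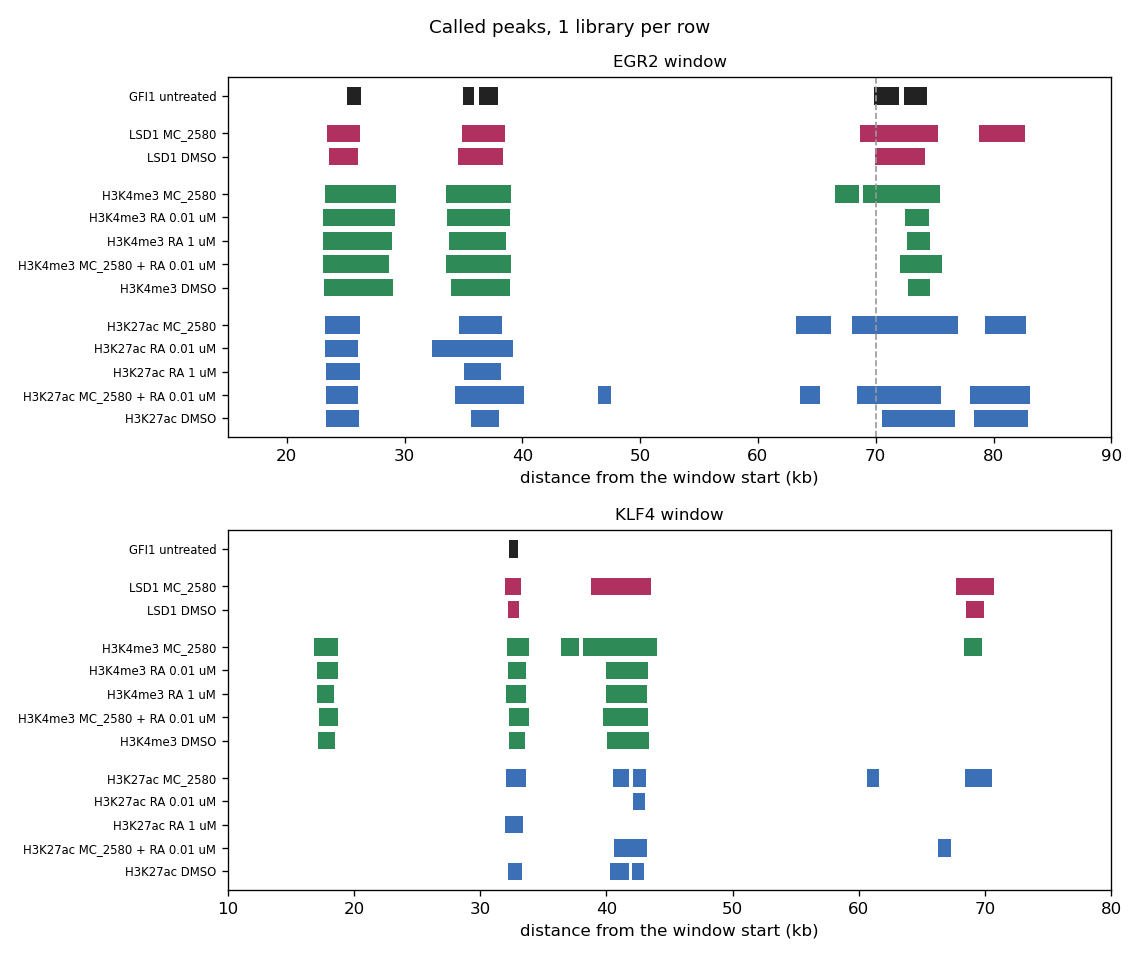
Called peaks of GFI1, LSD1, H3K4me3 and H3K27ac around EGR2 (top) and KLF4 (bottom), 1 library per row, by distance from the window start in kb (the dashed line at 70 kb is the end of the EGR2 window). On the EGR2 element at 68.7 to 75.3 kb H3K27ac is present with MC_2580, the combination and DMSO and absent with both RA doses; at KLF4 the element at 67.7 to 70.7 kb has H3K4me3 and H3K27ac with MC_2580 alone.

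SPI1 had the most H3K27ac cover of the 7 windows in DMSO, and its ratios to DMSO spanned the narrowest range. H3K27ac covered 51.3 kb with MC_2580, 65.3 kb with RA 0.01 µM, 63.2 kb with RA 1 µM, 57.2 kb with the combination and 61.4 kb with DMSO, of 80 kb. Its log2 ratios to DMSO lay between -0.26 and 0.09. The 3 elements with GFI1 and LSD1 in both conditions, at 43.8 to 48.1, 55.9 to 65.1 and 65.9 to 70.1 kb, carried all 4 marks in all 5 conditions. Their LSD1 scores were 1090, 3100 and 2490 with MC_2580, and 637, 1051 and 1551 with DMSO.

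H3K4me3 at SPI1 covered 25 kb with MC_2580, 30.6 kb with RA 0.01 µM, 25.9 kb with RA 1 µM, 25.3 kb with the combination and 16.4 kb with DMSO. All 4 treatments lay above DMSO. The peak of score 3100 at about 41 to 48 kb measured 6.52 kb with MC_2580 and 6.45 kb with DMSO. It measured 7.97 kb with RA 1 µM, 7.94 kb with the combination and 11.7 kb with RA 0.01 µM. The RA 0.01 µM peak began at 36.3 kb. Separate peaks lay just before the main one with RA 1 µM (36.7 to 39.6 kb), with the combination (37.4 to 39.5 kb) and also with MC_2580.

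In the window of EGR1, an early-response gene, the main H3K4me3 peak scored 3100 in all conditions. It measured 7.07 kb with MC_2580, 6.46 kb with RA 0.01 µM, 6.46 kb with RA 1 µM, 6.18 kb with the combination and 5.95 kb with DMSO. An LSD1 peak of score 1859 (chr5:137826760-137829986) was called on it with MC_2580, while the DMSO list had no LSD1 peak in the window. The only GFI1 peak of the window lay apart from it, at chr5:137801768-137802486.

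H3K27ac at EGR1 covered 7.23 kb with MC_2580, 31.3 kb with RA 0.01 µM, 10.4 kb with RA 1 µM, 12.2 kb with the combination and 14.7 kb with DMSO. RA 0.01 µM alone stood above DMSO, with a log2 ratio of 1.09, and the other 3 values were -1.02, -0.49 and -0.26. That list is the long one, and with lists of equal length its value was 1.32. The H3K27ac peak over the main H3K4me3 peak scored 1413 with MC_2580, 3100 in the 3 RA conditions and 2734 with DMSO.

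**Figure D5:**
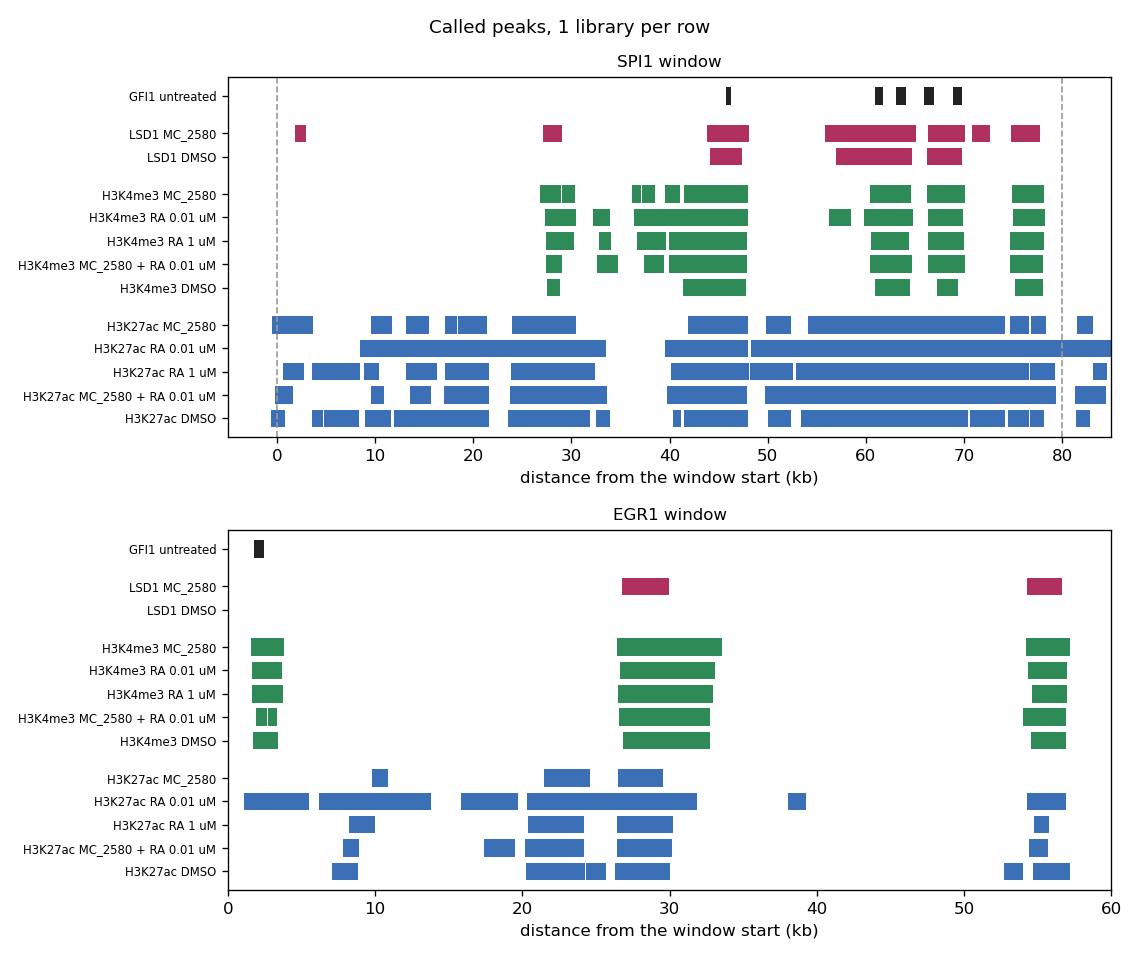
Called peaks of GFI1, LSD1, H3K4me3 and H3K27ac around SPI1 (top) and EGR1 (bottom), 1 library per row, by distance from the window start in kb (dashed lines mark window starts or ends). At SPI1 the 3 elements with GFI1 and LSD1 carry H3K4me3 and H3K27ac in every condition; at EGR1 LSD1 is called with MC_2580 at 26.8 to 30 kb and nowhere with DMSO.

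Set against the genome, the H3K4me3 differences with MC_2580 were shared by many regions. A window was counted as higher or lower past a 1.5-fold ratio of covered bases to DMSO, and the background is all 80 kb stretches with at least as much DMSO cover as the least covered window. With MC_2580 5 of 7 windows were higher in H3K4me3 (SPI1, IRF8, KLF4, ID2 and ID1), against 33.3% of stretches. The counts were 4 of 7 with RA 0.01 µM (29.3% of stretches), 3 of 7 with RA 1 µM (18.1%) and 4 of 7 with the combination (17.1%). The median log2 ratio over the windows was 0.96, 0.63, 0.31 and 0.62 in these treatments, against 0.65, 0.58, 0.42 and 0.40 for all covered bases of the lists. The windows and the lists thus differed from DMSO in the same direction, and with either RA dose the median lay close to the list value.

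For H3K27ac with MC_2580, 3 of 7 windows were higher (IRF8, EGR2 and KLF4), against 2.24% of stretches, and 2 were lower (EGR1 and ID2), against 37.4%. The count of lower windows was 1 with lists of equal length, where EGR1 had -0.51 instead of -1.02, and 1 with peaks assigned by their centre. With windows 20 kb wider on either side no window was higher with MC_2580, so that count rests on where the windows end. With RA 0.01 µM 5 windows were higher (36.9% of stretches) and 1 lower (21.6%). With RA 1 µM the counts were 2 higher (17.7%) and 1 lower (20%), and with the combination 4 higher (20.9%) and 0 lower (21%).

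The median log2 ratio of H3K27ac was -0.17 with MC_2580, 1.09 with RA 0.01 µM, 0.24 with RA 1 µM and 0.73 with the combination. The list values were -0.42, 0.65, 0.16 and 0.23. Each median stood above its list value, by the most with the combination. With 7 windows and 1 library a condition, this describes the windows and is no test.

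Elements with H3K27ac in DMSO that lost it, such as the EGR2 element with either RA dose, are not counted next. Elements that lacked it in DMSO could only gain it. Of 15 such elements in the windows, 5 had H3K27ac with MC_2580, against 6.19% of such elements in all. The number was 12 of 15 with RA 0.01 µM (against 18.9%), 11 with RA 1 µM (12.8%) and 8 with the combination (19.1%). The 6 of these elements at ID1 and ID2 had it in 0 cases with MC_2580, 6 with RA 0.01 µM, 5 with RA 1 µM and 6 with the combination. The 6 at IRF8 had it in 3, 5, 5 and 2 cases. Neighbouring elements often share 1 wide H3K27ac peak, so they are not separate observations. The background was not matched for class, and GFI1 alone made up 11.4% of the elements in the windows against 47.3% of all. Without the IRF8 window the counts were 2, 7, 6 and 6 of 9. With lists of equal length they were 7, 11, 10 and 10 of 18, against 8.24, 11, 9.78 and 14.1% of all such elements.

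For H3K4me3, 15 elements lacked the mark in DMSO. It was present on 5 of them with MC_2580 (15% of such elements in all), on 1 with RA 0.01 µM (9.88%), on 0 with RA 1 µM (7.95%) and on 2 with the combination (11.6%). Of the 5 with MC_2580, 3 lay at IRF8, 1 at KLF4 and 1 at ID1. With lists of equal length the number with MC_2580 was 0 of 15, against 7.6% of all such elements. At a minimum score of 100 it was 2 of 14 (14.3%), against 23.9%.

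Peak by peak, H3K27ac had 35 peaks in the windows with MC_2580, 42 with RA 0.01 µM, 43 with RA 1 µM, 41 with the combination and 38 with DMSO. Those without a DMSO counterpart were 8 with MC_2580 (22.9%, against 11.2% of the list), 25 with RA 0.01 µM (59.5%, against 53.9%), 15 with RA 1 µM (34.9%, against 33.3%) and 14 with the combination (34.1%, against 37.1%). The shares were near those of the lists except with MC_2580, where the interval of 10.4 to 40.1% still holds the list value. Of the 38 DMSO peaks, 10 had no counterpart with MC_2580 (26.3%, against 35%), 7 with RA 0.01 µM (18.4%, against 18.3%), 7 with RA 1 µM (18.4%, against 20.9%) and 6 with the combination (15.8%, against 21.2%).

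H3K4me3 had 37 peaks with MC_2580, 27 with RA 0.01 µM, 24 with RA 1 µM, 29 with the combination and 23 with DMSO. Without a DMSO counterpart were 14 with MC_2580 (37.8%, against 33.5% of the list), 6 with RA 0.01 µM (22.2%, against 29.2%), 4 with RA 1 µM (16.7%, against 25.6%) and 6 with the combination (20.7%, against 26.6%). None of the 23 DMSO peaks was lost in any of the 4 treatments, for which the interval reaches 14.8%. The list shares lost were 2.2, 3.97, 6.12 and 6.29%, all within that interval. Every H3K4me3 peak of DMSO in the windows thus had a counterpart in every treatment.

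H3K4me1 had 41 peaks with MC_2580, 46 with RA 0.01 µM, 51 with RA 1 µM, 55 with the combination and 42 with DMSO. Peaks without a DMSO counterpart numbered 2 with MC_2580 (4.88%, against 8.54% of the list), 1 with RA 0.01 µM (2.17%, against 11.7%), 4 with RA 1 µM (7.84%, against 14.2%) and 11 with the combination (20%, against 21.9%). Of the 42 DMSO peaks, 1 was lost with MC_2580 (2.38%, against 13.1% of the list), 2 with RA 0.01 µM (4.76%, against 19.5%), 1 with RA 1 µM (2.38%, against 14%) and 0 with the combination (against 7.79%). The median log2 cover ratio was 0.16, -0.37, -0.11 and 0.16, against -0.02, -0.33, -0.18 and 0.06 for the whole lists. Cover with the combination was above that with RA 0.01 µM in 7 of 7 windows, by 0.31 to 1.23 on the log2 scale, and the whole lists covered 211 Mb with the combination and 161 Mb with RA 0.01 µM.

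H3K4me2 had 52 peaks with MC_2580, 42 with RA 0.01 µM, 55 with RA 1 µM, 51 with the combination and 41 with DMSO. Those without a DMSO counterpart numbered 11 with MC_2580 (21.2%, against 22.3% of the list), 9 with RA 0.01 µM (21.4%, against 14.3%), 14 with RA 1 µM (25.5%, against 22.1%) and 15 with the combination (29.4%, against 23.2%). Of the 41 DMSO peaks, 2 were lost with MC_2580 (4.88%, against 11% of the list), 5 with RA 0.01 µM (12.2%, against 19.7%), 5 with RA 1 µM (12.2%, against 19.5%) and 0 with the combination (against 14.4%). The median log2 cover ratio of H3K4me2, a substrate of LSD1, was 0.06, -0.07, 0.07 and 0.24 in the 4 treatments, against 0.07, -0.09, -0.12 and 0.11 for the whole lists.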

How the data were processed

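ChIP-seq of NB4 cells gave 23 peak lists from 25 samples, and the 2 inputs were not analysed here. The submitters' processing notes name bcl2fastq 2, CASAVA 1.8, FastQC 0.10.0 and 0.11.5, Bowtie 1.0.1 and MACS 1.4.1, on hg18. The deposited score per peak is the authors' value from the caller. The LSD1 lists had been filtered in a way not given in the sources used here. The members, windows and lists were chosen with earlier results of these data known.

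Peaks overlapping a window by 1 base were taken in Python 3.11.15 (NumPy 2.4.6). Intervals used SciPy 1.17.1, and Matplotlib 3.10.9 drew the figures. Cover is the number of window bases under peaks of a list. A treated peak that no DMSO peak of the same antibody overlapped was gained, and the reverse was lost. Intervals are 95% exact binomial and cover counting error only. With 1 library per group, no test was made. On simulated lists all 400 planted gains and 600 planted losses were recovered. No coordinates were converted between builds. Named were all 7 genes and, in each window, the peaks with GFI1 or LSD1, the widest peaks and those gained or lost. Alternatives were a minimum score of 100, lists of equal length, windows 20 kb wider on either side, peaks assigned by their centre, peaks within 1 kb joined, a 50% reciprocal overlap, centres within 500 bases, 1 minimum score for both LSD1 lists and a minimum for GFI1. Those on elements and on counts of windows were chosen after seeing the data.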

Additional observations from a re-analysis of the deposited data

Results flagged for a closer look

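H3K27ac cover at IRF8 stands here because cover with MC_2580 was above that of DMSO, while cover with the combination was below that of RA 0.01 µM. The log2 ratio of covered bases was 0.677 for MC_2580 over DMSO (50.3 kb with MC_2580 and 31.4 kb with DMSO), and was 1.34 with lists of equal length and 0.34 with windows 20 kb wider on either side. It was -0.629 for the combination over RA 0.01 µM (52 kb with the combination and 80.4 kb with RA 0.01 µM). Each condition is 1 library, the difference between both ratios was not tested, and the RA 0.01 µM list of H3K27ac is the longest of the 5. With lists of equal length, the log2 ratio to DMSO was 1.10 for the combination and 1.77 for RA 0.01 µM. With the wider windows it was 0.29 and 0.80.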

How the results depend on the processing

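No paired analysis was possible because each antibody and treatment has 1 library. Of 326 comparisons of summary values with an alternative, 276 held within the limits set, 50 moved and 0 reversed. Of 1229 values of single windows, 1123 held, 105 moved and 1 reversed. Shares and counts have no sign to reverse, and a log2 ratio that changed sign was not always counted as reversed. With widened windows, H3K27ac at EGR2 with RA 1 µM went from 0.24 to -0.91 and counted as moved. At ID1 with MC_2580 it went from -0.17 to 0.41 and counted as held. With lists of equal length, KLF4 with the combination went from 0.07 to -0.43 and counted as held. All 16 median log2 ratios held under all 4 alternatives tried for them. As a log2 ratio could change sign and still count as held, this gives no support to the direction of small medians. Examples are 0.06 for H3K4me2 and -0.17 for H3K27ac, both with MC_2580. The reversed value was H3K27ac at EGR2 with RA 0.01 µM, -0.54 with widened windows, which take in a DMSO peak just beyond the end. The shares of gained and lost peaks given next are of the window peaks alone. Such shares of the whole lists were not computed under the alternatives, so the list values given earlier are no background for them. A 50% reciprocal overlap asks for peaks of like width and so gave larger shares. In the order MC_2580, RA 0.01 µM, RA 1 µM and combination, gained H3K4me1 peaks were then 21.9, 34.8, 29.4 and 43.6%, and lost ones 26.2, 30.9, 14.3 and 26.2%. Gained H3K4me2 was 36.5% with MC_2580 and 43.6% with RA 1 µM, and lost H3K4me2 19.5% with MC_2580, 31.7% with RA 0.01 µM and 21.9% with the combination. Gained H3K4me3 was 44.8% with the combination, and lost H3K4me3 was 26.1, 21.7, 30.4 and 30.4% in the 4 treatments, so the absence of loss holds for calls and not for widths. Gained H3K27ac was 83.3% with RA 0.01 µM and 61% with the combination, lost H3K27ac 47.4, 81.6, 39.5 and 60.5% in the 4 treatments, and lost LSD1 23.5%. With a minimum score of 100, gained H3K4me1 was 0% with either RA dose, lost H3K4me2 was 0% with MC_2580 and 3.33% with either RA dose, and gained H3K4me3 with MC_2580 was 21.4%. With lists of equal length, gained H3K4me1 was 0% with either RA dose and 8.89% with the combination, gained H3K4me3 with MC_2580 was 4.17%, lost H3K27ac with MC_2580 was 12%, and elements with new H3K4me3 were 0% with MC_2580 and with RA 0.01 µM; without the IRF8 window they were also 0% with RA 0.01 µM. Windows higher in H3K27ac with MC_2580 were 0 with widened windows. Windows lower in H3K27ac were 1 with MC_2580 for lists of equal length or peaks assigned by centre, 0 with either RA dose for a minimum score of 100 or equal length, and 2 with RA 1 µM for widened windows. Only 2 windows kept a GFI1 peak scoring at least the lowest LSD1 score with MC_2580, and with centres within 500 bases 15.6% of LSD1 peaks with MC_2580 and 35.3% with DMSO met GFI1. The share of the whole LSD1 lists was not computed with centres within 500 bases, so these 2 values have no background. The 4-letter core was before 6 starts. H3K27ac at KLF4 gave no value with either RA dose for a minimum score of 100 or equal length, since no peak was left. The cause of these moves was not tested except where stated. Read depth and replicate error are unknown and limit all values.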
